A study of Homo sapiens with 2 samples.

Results

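The S100A9/CST1 set is a group of 400 barcodes in a joint single-cell RNA and ATAC matrix of 5 mixed human lung adenocarcinoma lines. It was chosen by 4 RNAs: S100A9, a subunit of the neutrophil protein calprotectin; CST1, a secreted cystatin; ATP10B, a phospholipid flippase; and the noncoding RNA LINC02755. A barcode is the tag shared by the RNA and DNA fragments of 1 droplet. A barcode entered when it held at least 2 UMIs (unique molecular identifiers, which count RNA molecules once) of these 4 genes, and when they made up at least 70% of the UMIs of 5 marker groups. It also had to reach 1000 UMIs and 1000 peak counts, with no more than 20% of its UMIs from mitochondrial genes. Of the 3298 barcodes, 2804 passed these limits, so the set held 14.3% of them (95% exact binomial interval 13 to 15.6). The same rule on the other marker groups gave the sets compared with it: 746 barcodes for RBFOX3/AKR1B10, 513 for SLC30A8/MAGEA10, 297 for GRIA4/LINC01980 and 250 for DHRS2/ZNF676. The remaining 598 barcodes met no rule.

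All sets came from A549, H838, H1975, H2228 and HCC827, which were cultured apart in RPMI 1640 with fetal calf serum and antibiotics, frozen, and combined in equal shares in a single capture. No line was treated. The matrix joins 1 RNA and 1 ATAC library of the larger of 2 fractions of that capture, so no set has a replicate. For this reason no test was made. Intervals are 95% exact intervals that cover counting error only, and the values compare these barcodes, not separate cultures. The deposited files used here do not tie barcodes to lines.

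Inflamed epithelia secrete acute phase proteins, chemokines and complement, much of it through the transcription factor NF-kB, which also switches on its own inhibitors. Interferon-gamma induces CIITA, the master regulator of MHC class II, in cells other than professional antigen-presenting cells. Some lung adenocarcinoma cells, like the alveolar type II cells they resemble, carry MHC class II without being immune cells.

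A gene is called higher here when its summed level, in CPM (the UMIs of every set scaled to the same total) plus 1, was at least 2-fold above the highest of the other 4 sets. It is called lower when it was at least 2-fold under the lowest. Among 16935 genes with at least 50 UMIs over the 5 sets, the rule genes left out, 658 (3.89%) were higher and 385 (2.27%) were lower. Against the mean of the other sets in place of the extreme one, 1561 (9.22%) were at least 2-fold above and 3129 (18.5%) at least 2-fold under. The median gene stood at -0.21 on the log2 scale against the mean of the other sets. A gene could reach the minimum of 50 UMIs through members alone, which makes a higher call likely. These calls come from the same cells as the rule and describe the set.

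The marker genes were spread unevenly over the members. S100A9 was at 622 CPM (605 to 639) in the S100A9/CST1 set, against 50.2 in RBFOX3/AKR1B10, 35.8 in SLC30A8/MAGEA10, 15.9 in GRIA4/LINC01980 and 33.4 in DHRS2/ZNF676. It had a UMI in 90.7% of members. CST1 was at 132 CPM in 48.3% of members, against 1.48 to 4.59 CPM in the other sets. LINC02755 was at 96.5 CPM in 63.5% of members, against 2.65 to 9.97. ATP10B was at 28.2 CPM in 30% of members, against 0.353 to 3.21. S100A9 was thus seen in the most members and ATP10B in the fewest, and these values chose them. The S100A9/CST1 genes gave 93.2% of the members' marker UMIs, and 251 members held no UMI of another marker group.

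Members near the limits of the rule had less LCN2, the secreted acute phase protein described below. LCN2 was at 8733 CPM in the 35 members with exactly 2 marker UMIs and at 11412 CPM in the 365 with more. It was at 7863 CPM in the 38 members with 70 to 80% of marker UMIs. Just outside, it was at 5735 CPM in 43 barcodes whose only marker UMI was 1 of this group, and at 5416 CPM in 94 barcodes at 50 to under 70%. These barcodes outside the set still exceeded the level of every other set.

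Members were deeply sequenced. They had a median of 13942 UMIs (2246 to 173641) and 33820 peak counts, against medians of 4746 to 15344 UMIs and 13071 to 32386 peak counts in the other sets. Mitochondrial UMIs made up a median of 8.88% in members, against 0.435% in RBFOX3/AKR1B10, 0.463% in SLC30A8/MAGEA10, 14.2% in GRIA4/LINC01980 and 12.3% in DHRS2/ZNF676. Ribosomal protein genes gave 4.50% of the UMIs of the S100A9/CST1 set and 1.59 to 3.31% in the others. With only barcodes of at least 5% mitochondrial UMIs (342 members against 99 to 250), 649 genes were higher and 361 lower, of which 578 and 314 were called in the full sets.

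Markers of blood, vessel and stromal cells were mixed. Of 15 myeloid markers, 7 had no UMI in members, among them MPO, LYZ, FCN1, CSF3R and SPI1, and the list summed to 357 CPM against 65.7 to 960. VCAN, also made by tumour cells, gave 330 of these 357 CPM. PTPRC, the leukocyte antigen CD45, was nevertheless higher, at 6.57 CPM against 0.424 to 1.22. Of the 8 lymphoid markers 4 had no UMI, and the list summed to 0.822 CPM, against 0 to 2.97. PECAM1, an adhesion molecule of endothelium, was higher at 96.4 CPM against 2.75 to 32.6 and gave most of the sum of 8 endothelial markers, 98.5 CPM against 5.30 to 36.1. KDR and CLDN5 had no UMI and CDH5 was at 0.117 CPM. Of 8 fibroblast markers, of which 3 could be measured, none was higher, and DCN and COL3A1 had no UMI. Their sum was 125 CPM against 26.4, 9.18, 11.2 and 155 CPM in RBFOX3/AKR1B10, SLC30A8/MAGEA10, GRIA4/LINC01980 and DHRS2/ZNF676, and COL1A1, a collagen chain, gave 118 of it in members. The part of such cells in the results was not tested. EPCAM, which marks epithelium, was at 298 CPM against 91.8, 44.1, 710 and 256 CPM in RBFOX3/AKR1B10, SLC30A8/MAGEA10, GRIA4/LINC01980 and DHRS2/ZNF676. Of the neutrophil genes MPO, CSF3R and FCGR3B had no UMI in members, and ELANE, a granule protease, had 2. Of 6 markers taken for H2228, PIGR, LCN2, CD74, SAA1 and SAA2 were higher. ALK, the gene fused in that line, was at 17.7 CPM against 17.8 in GRIA4/LINC01980 and 7.96 to 9.45 in the rest. The set is therefore named by its genes and not by a line. The marker list had been chosen with earlier results of these data known.

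The promoters below belong to genes on which the description turns: the naming gene S100A9, 4 secreted inflammatory proteins, and 3 MHC class II genes. They are the 250 bases before the start in RefSeq (GRCh38.p14). In the first 5, capitals mark matches of a kappa-B motif, the letters bound by NF-kB. In the last 3, capitals mark a CCAAT box (CCAAT on either strand), of the kind that forms the Y box of MHC class II promoters.
S100A9 (chr1:153357604-153357853, plus strand): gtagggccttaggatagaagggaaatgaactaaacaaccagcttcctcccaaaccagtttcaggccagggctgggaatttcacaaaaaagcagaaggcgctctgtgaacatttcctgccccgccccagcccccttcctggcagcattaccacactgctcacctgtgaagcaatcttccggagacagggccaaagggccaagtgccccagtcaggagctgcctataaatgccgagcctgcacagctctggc
LCN2 (chr9:128149203-128149452, plus strand): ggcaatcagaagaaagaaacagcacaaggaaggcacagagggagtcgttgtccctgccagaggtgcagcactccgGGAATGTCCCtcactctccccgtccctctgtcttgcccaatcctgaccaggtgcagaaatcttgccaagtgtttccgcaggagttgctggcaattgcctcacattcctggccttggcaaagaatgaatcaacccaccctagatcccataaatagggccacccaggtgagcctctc
CCL20 (chr2:227813592-227813841, plus strand): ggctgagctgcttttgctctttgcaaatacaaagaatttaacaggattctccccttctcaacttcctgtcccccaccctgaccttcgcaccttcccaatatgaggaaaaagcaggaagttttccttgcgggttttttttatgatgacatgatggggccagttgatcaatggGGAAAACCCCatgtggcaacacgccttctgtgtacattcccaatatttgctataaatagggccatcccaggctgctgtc
CXCL6 (chr4:73836428-73836677, plus strand): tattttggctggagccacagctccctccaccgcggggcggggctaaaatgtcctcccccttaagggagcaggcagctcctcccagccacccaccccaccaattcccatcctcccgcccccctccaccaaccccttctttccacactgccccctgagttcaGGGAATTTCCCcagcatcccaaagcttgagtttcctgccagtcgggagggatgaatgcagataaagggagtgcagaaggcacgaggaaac
IL32 (chr16:3065153-3065402, plus strand): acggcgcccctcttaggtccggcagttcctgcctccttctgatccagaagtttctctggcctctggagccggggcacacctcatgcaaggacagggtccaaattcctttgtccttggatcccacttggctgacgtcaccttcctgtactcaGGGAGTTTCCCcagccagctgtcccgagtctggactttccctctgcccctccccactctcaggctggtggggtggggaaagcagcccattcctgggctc
HLA-DQA1 (chr6:32637156-32637405, plus strand): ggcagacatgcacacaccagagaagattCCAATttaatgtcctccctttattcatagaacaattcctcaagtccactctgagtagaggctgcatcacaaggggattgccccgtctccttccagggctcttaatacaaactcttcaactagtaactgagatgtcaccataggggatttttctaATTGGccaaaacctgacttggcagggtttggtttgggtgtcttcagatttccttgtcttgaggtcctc
HLA-DRB1 (chr6:32589849-32590098, minus strand): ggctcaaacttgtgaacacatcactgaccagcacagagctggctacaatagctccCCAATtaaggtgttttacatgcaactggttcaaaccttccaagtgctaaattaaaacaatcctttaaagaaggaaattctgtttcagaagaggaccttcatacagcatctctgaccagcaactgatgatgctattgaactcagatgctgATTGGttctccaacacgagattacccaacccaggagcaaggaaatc
CD74 (chr5:150412911-150413160, minus strand): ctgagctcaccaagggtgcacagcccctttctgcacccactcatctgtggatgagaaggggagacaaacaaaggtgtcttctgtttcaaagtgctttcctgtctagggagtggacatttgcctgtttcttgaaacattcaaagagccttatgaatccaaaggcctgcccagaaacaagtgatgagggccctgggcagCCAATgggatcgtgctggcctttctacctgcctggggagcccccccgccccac

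The S100A9 window held no kappa-B match by these letters. In LCN2 the match lay 175 to 166 bases before the start and shared bases with a TEAD match (CATTCC). In CCL20 it lay 79 to 70 bases before the start. CXCL6 and IL32 each held a pair of matches, 1 on each strand and shifted by 1 base, which appear as 1 run, and that of CXCL6 overlapped a STAT match (TTCNNNGAA). The CCAAT box nearest the start lay 68 to 64 bases before it in HLA-DQA1, 46 to 42 in HLA-DRB1 and 53 to 49 in CD74, whose window also held overlapping kappa-B matches, not capitalised, 20 to 9 bases before the start. HLA-DQA1 and HLA-DRB1 each held a further one, 222 to 218 and 195 to 191 bases before the start.

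Acute phase genes, whose products the liver and inflamed epithelia secrete, were divided. Of the list's 14 genes 7 could be measured and these 7 were higher, with a median of 3.66 on the log2 scale over the mean of the other sets. With no minimum of UMIs 7 of 12 were higher and the median was 2.47. LCN2, which withholds bacterial iron carriers, was at 11317 CPM (11245 to 11388) in the S100A9/CST1 set. It was at 787 CPM in RBFOX3/AKR1B10, 498 in SLC30A8/MAGEA10, 676 in GRIA4/LINC01980 and 928 in DHRS2/ZNF676, a 12.2-fold difference from the highest. It had the 6th highest level of all genes in members. SAA1, a serum amyloid A protein, was at 1095 CPM, against 105, 97.5, 70.8 and 116 CPM in the same order. SAA2 was at 325 CPM against 16.1 to 37.8, and SAA4 at 164 CPM against 4.41 to 28.2. These near copies may share reads. The protease inhibitors SERPINA3, at 112 CPM against 4.41 to 13.9, and SERPINA1, at 230 CPM against 12.7 to 82.8 were also higher. The copper carrier CP was at 523 CPM, only 2.10-fold above RBFOX3/AKR1B10 at 249 CPM. CRP and ITIH3 had no UMI, and HP, ORM1, ORM2, ITIH4 and LBP had 2 to 10 UMIs in members. Of the 14 genes 7 thus stood above every other set and the other 7 were at or near 0 in members.

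Of 13 measured chemokines 7 were higher, with a median of 2.24. CCL20, which attracts CCR6-bearing lymphocytes, was at 333 CPM (321 to 345) in members, against 12.2, 6.0, 4.87 and 32.0 CPM in RBFOX3/AKR1B10, SLC30A8/MAGEA10, GRIA4/LINC01980 and DHRS2/ZNF676. Neutrophil attractants were also high. CXCL8 was at 879 CPM against 56.3, 31.6, 27.3 and 130, and CXCL1 at 951 CPM against 61.7, 39.4, 19.9 and 147. CXCL6 was at 163 CPM against 4.24 to 22.7, CXCL2 at 131 CPM against 8.69 to 29.6, and CXCL5 at 152 CPM against 2.83 to 60.9. CXCL3 missed the threshold at 68.9 CPM, since RBFOX3/AKR1B10 had 35.5. The mucosal chemokine CCL28 was at 46.7 CPM against 4.20 to 18.5. The interferon-induced lymphocyte attractants CXCL10 and CXCL11 had no UMI in members, and CCL5 was at 8.80 CPM in 1.5% of them. CCL2, a monocyte attractant, was at 25 CPM, below the 27 CPM of SLC30A8/MAGEA10. The neutrophil attractants other than CXCL3, with CCL20 and CCL28, thus stood out.

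Cytokines were present at lower levels, with 6 of 11 measured genes higher. The death ligand TNFSF10 was at 178 CPM against 5.47 to 31.4, and the macrophage growth factor CSF1 at 106 CPM against 17 to 36.9. IL32 was at 29.0 CPM against 1.27 to 3.71, IL1A at 25.7 CPM against 1.59 to 4.45, CSF2 at 15.6 CPM against 0.636 to 1.40, and IL1B at 10.6 CPM against 0.353 to 3.60. IL6 was the highest of the sets at 30.4 CPM, but SLC30A8/MAGEA10 had 16.8. The cytokine TNF had no UMI in members. Of 21 inflammatory receptors 3 were higher: both interferon-gamma receptor chains, IFNGR1 at 563 CPM against 39.8 to 142 and IFNGR2 at 141 CPM against 30.9 to 55, and TLR2, a sensor of bacterial lipoproteins, at 44.8 CPM against 0.706 to 10.1. The higher share among all measured genes was 3.89%.

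NF-kB components and feedback genes were mixed. Of 21 measured genes 9 were higher, with a median of 1.07. They included the inhibitors NFKBIA at 245 CPM against 43.9 to 54.5, TNIP1 at 154 CPM against 27.2 to 41.8, TNFAIP3 at 42.6 CPM against 11.7 to 17.8 and TNIP3 at 60.1 CPM against 0.847 to 11.3. The survival gene BIRC3 was at 324 CPM against 11.3 to 52.8, and the mitochondrial superoxide dismutase SOD2 at 490 CPM against 64.8 to 132. Others of the list were not higher, among them NFKBIZ at 90 CPM against 56.5 to 285 and the inhibitor NFKBIB at 17 CPM against 8.26 to 21.3. None of the 5 subunit genes was higher, although RELA and NFKB2 had their highest level in members. RELA was at 20.5 CPM against 6.12 to 13.4, NFKB1 at 124 CPM against 78.1 to 137, NFKB2 at 14.6 against 4.20 to 8.83, RELB at 35.0 against 13.6 to 45.2, and REL at 41.4 against 30.3 to 61.7. Of 14 complement genes 7 were higher. They were the components C3 at 762 CPM against 25.2 to 256, CFB at 645 CPM against 35.0 to 119, C1R and C2, and the regulators CD55, CD46 and C4BPB. C5 was at 20.8 CPM, far under the 277 CPM of RBFOX3/AKR1B10.

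MHC class II genes were the list with the highest median, 3.88, and 12 of 15 measured genes were higher. CD74, the invariant chain that guides class II molecules, was at 2431 CPM in the S100A9/CST1 set. It was at 162 CPM in RBFOX3/AKR1B10, 74.3 in SLC30A8/MAGEA10, 60 in GRIA4/LINC01980 and 324 in DHRS2/ZNF676. HLA-DRA was at 857 CPM against 22.9 to 99.5, and HLA-DRB1 at 943 CPM (923 to 964) against 21.2 to 94.3. The DP and DQ chains HLA-DPA1, HLA-DPB1, HLA-DQA1 and HLA-DQB1 were at 182 to 298 CPM. In the other sets each of them was under 35 CPM. The peptide-exchange chains HLA-DMA and HLA-DMB were higher, and so was the regulator CIITA itself, at 34.0 CPM against 2.12 to 12.4. CTSS, which trims the invariant chain, was at 89.0 CPM against 85.2 in GRIA4/LINC01980, and IFI30, a lysosomal reductase, was at 24.2 CPM against 20.3 to 82.8. HLA-DOB, a chain of the DO modulator, was at 3.64 CPM against 0.306 to 2.33. These 3 were the measured genes that were not higher, and CIITA was 2.61-fold above DHRS2/ZNF676. HLA-DRB1 and HLA-DRB5, like the class I genes, are near copies, and how reads were split between them is uncertain.

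Class I genes were less far apart. Of 15 genes 7 were higher, with a median of 1.56. B2M was at 3297 CPM against 470 to 1346, HLA-B at 1605 CPM against 73.1 to 443 and HLA-C at 1139 CPM against 61.1 to 303. NLRC5, the class I regulator, was at 29.8 CPM against 11.9 to 57.6. Of 32 interferon-stimulated genes 2 were higher, MX2 at 26.3 CPM against 1.94 to 12.6 and IRF1 at 41.9 CPM against 9.89 to 19.3. Over all measured genes 3.89% were higher. RSAD2 was at 0.939 CPM against 0 to 8.88. Interferon-stimulated genes as a group thus had a median of 0.49, against -0.21 for all genes.

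**Figure D1:**
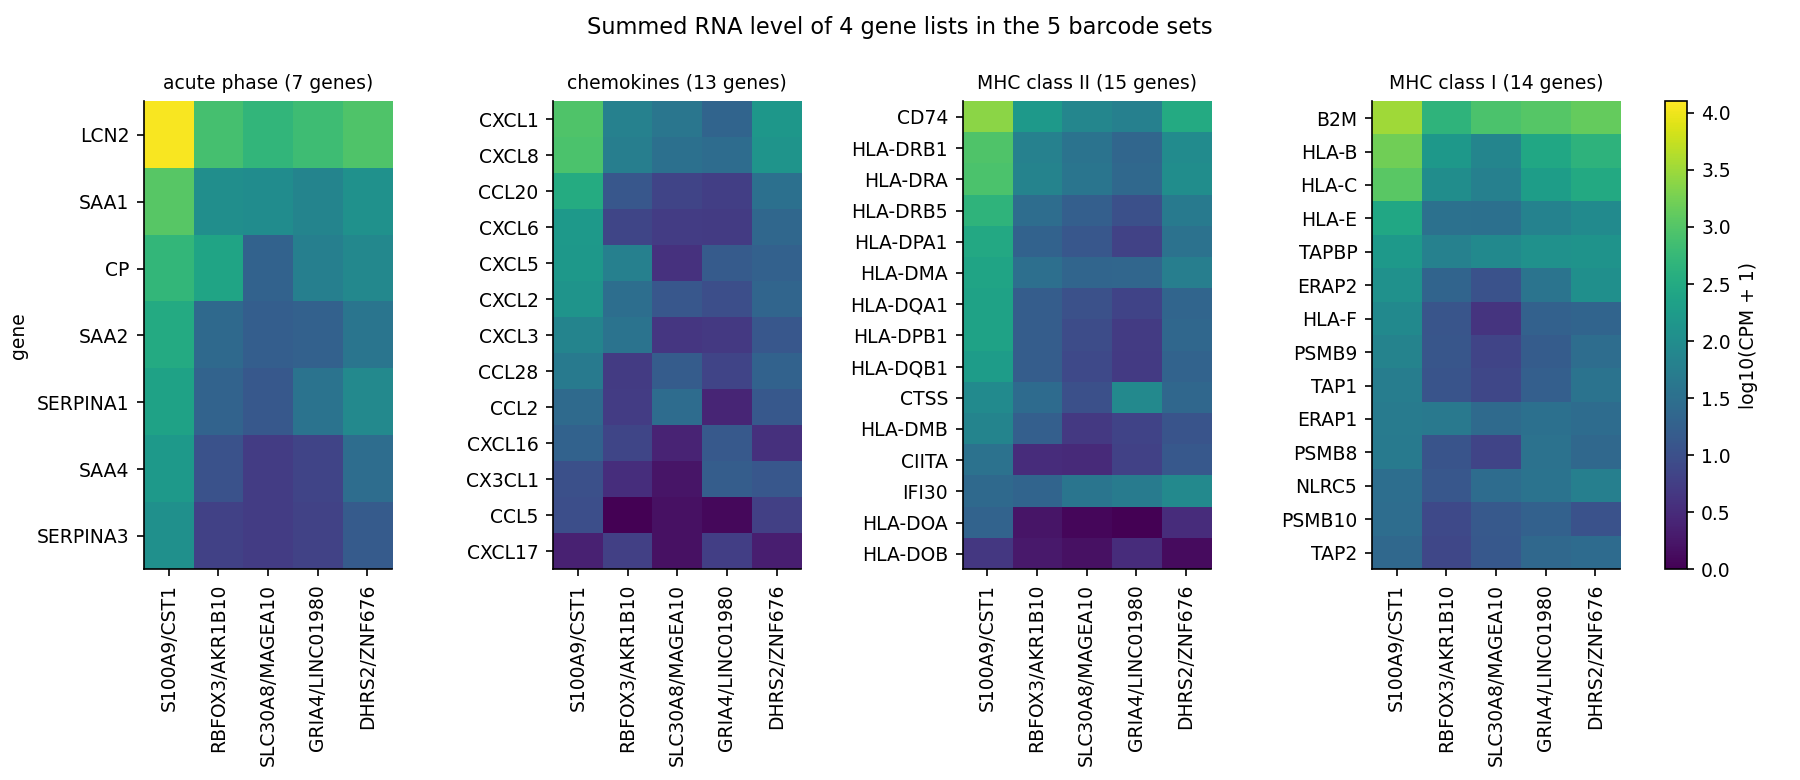
Heat map of the summed RNA level, as log10 of CPM + 1, of measured genes of 4 lists (rows) in the 5 barcode sets (columns). The S100A9/CST1 column is the brightest for all 7 acute phase genes and for 14 of 15 MHC class II genes, but not for CCL2, CX3CL1, CXCL17, IFI30, TAP2 or NLRC5.

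Levels of these genes in the other sets varied from set to set and from gene to gene. Over the 26 higher genes of the acute phase, chemokine and MHC class II lists, the median level relative to that of the S100A9/CST1 set was 6.67% in RBFOX3/AKR1B10, 3.99% in SLC30A8/MAGEA10, 3.36% in GRIA4/LINC01980 and 12.2% in DHRS2/ZNF676. Single genes ran from 3.66 to 47.6% in RBFOX3/AKR1B10, 0.927 to 31.0% in SLC30A8/MAGEA10, 0 to 15.6% in GRIA4/LINC01980 and 8.20 to 39.6% in DHRS2/ZNF676. The part of free RNA and of mixed droplets in these levels was not tested. Barcodes thinned to 4000 UMIs gave the same picture at 1 depth. Thinning left out barcodes with fewer UMIs: 5 members, and 269, 36, 11 and 10 barcodes of the other sets in the order above. The shares below therefore describe the deeper barcodes, above all in RBFOX3/AKR1B10. Acute phase genes had at least 10 UMIs in 93.2% of 395 members (90.2 to 95.4), against 5.45% in RBFOX3/AKR1B10, 1.89% in SLC30A8/MAGEA10, 7.69% in GRIA4/LINC01980 and 8.33% in DHRS2/ZNF676. MHC class II genes did so in 83.8% of members, against 1.89%, 0.629%, 0.699% and 4.58% in the same order. Chemokines did so in 47.1% of members, against 0 to 1.25%. Of the mean of 56.9 acute phase UMIs per thinned member LCN2 alone gave 46.6, so the acute phase share mostly describes that gene. Most members thus reached 10 UMIs of the first 2 lists, and about as many reached 10 chemokine UMIs as did not.

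Secretory genes formed a further group, with 4 of 12 measured airway genes higher. PIGR, which carries IgA across epithelium, had the largest ratio of the measured genes, the rule genes left out, 16.3-fold, at 316 CPM (305 to 329) against 10.7, 3.18, 10.4 and 18.5 CPM. FCGBP, a mucus protein, came next at 502 CPM against 36.4, 4.94, 7.42 and 20.4. WFDC2 was at 329 CPM against 13.8 to 44.9, and the mucins MUC4 and MUC5B were at 174 CPM against 4.59 to 24.5 and at 278 CPM against 7.77 to 79.6. MUC5AC was at 39.8 CPM, against 122 in RBFOX3/AKR1B10, and SLPI at 232 CPM, against 612 in SLC30A8/MAGEA10. SLC34A2, the phosphate transporter of alveolar type II cells, was at 218 CPM against 3.60 to 24.6, and LAMP3, a lamellar body protein of those cells, at 14.3 CPM against 0.525 to 3.39. NKX2-1, the lung lineage regulator, was at 30.4 CPM against 90.5 in GRIA4/LINC01980, and NAPSA at 40.4 CPM against 98.9. The lineage list as a whole had 3 of 14 genes higher and a median of 0.01, where 3.89% of all measured genes were higher.

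None of 10 other measured S100 genes was higher. With 3.89% of all measured genes higher, a count of 0 in so short a list says little. S100A14 came nearest at 23.9 CPM against 0.530 to 11.9, and S100A6 was at 1051 CPM against 447 to 1139. S100A9's partner in calprotectin, S100A8, was not among the measured genes of the list. Of 5 measured cystatins CST4, CST2 and CSTB were higher: CST4 at 6.57 CPM against 0 to 0.306, CST2 at 4.58 CPM against 0.177 to 0.765, and CSTB at 402 CPM against 44.9 to 69.3. CST4 and CST2 had 56 and 39 UMIs in members and passed the minimum of 50 UMIs over the sets mainly through them, and with at least 90% of marker UMIs 1 of 3 measured cystatins was higher. CST1, CST2 and CST4 are near copies that may share reads. None of 14 other flippase genes was higher, again in a short list. Among serpins SERPINF1 was at 79.7 CPM against 2.12 to 11 and SERPINB3 at 7.63 CPM against 0.350 to 2.91.

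Epithelial and mesenchymal genes were mixed. EHF, an epithelial ETS factor, was at 178 CPM against 3.36 to 47.7, CLDN1 at 189 CPM against 7.77 to 47.9 and SPINT1 at 198 CPM against 8.83 to 60, the 3 higher of 24 measured. GRHL2, a driver of epithelial identity, was at 34.9 CPM against 259 in GRIA4/LINC01980, and CDH1 at 79.1 CPM against 350. Of 22 mesenchymal genes MMP2, a gelatinase, at 72.3 CPM against 1.27 to 9.49, and COL6A2, at 105 CPM against 6.57 to 27.6, were higher. With 3.89% of all measured genes higher, so few calls say little about either list. CDH2 was at 1.41 CPM, against 96.0 in RBFOX3/AKR1B10. BMP3, a ligand that opposes other BMPs, was at 16.9 CPM against 0 to 0.636. KRT6A, a keratin of stratified and regenerating epithelium, was at 10.6 CPM against 0 to 0.212, but 21 members held all of its 90 UMIs and 5 of them held 54. Both BMP3 and KRT6A passed the minimum of UMIs over the sets only through members, which makes a higher call likely. AC004875.1 and AL162414.1, 2 genes of no stated function, were at 174 CPM against 2.33 to 17 and at 49.4 CPM against 0.636 to 4.90.

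**Figure D2:**
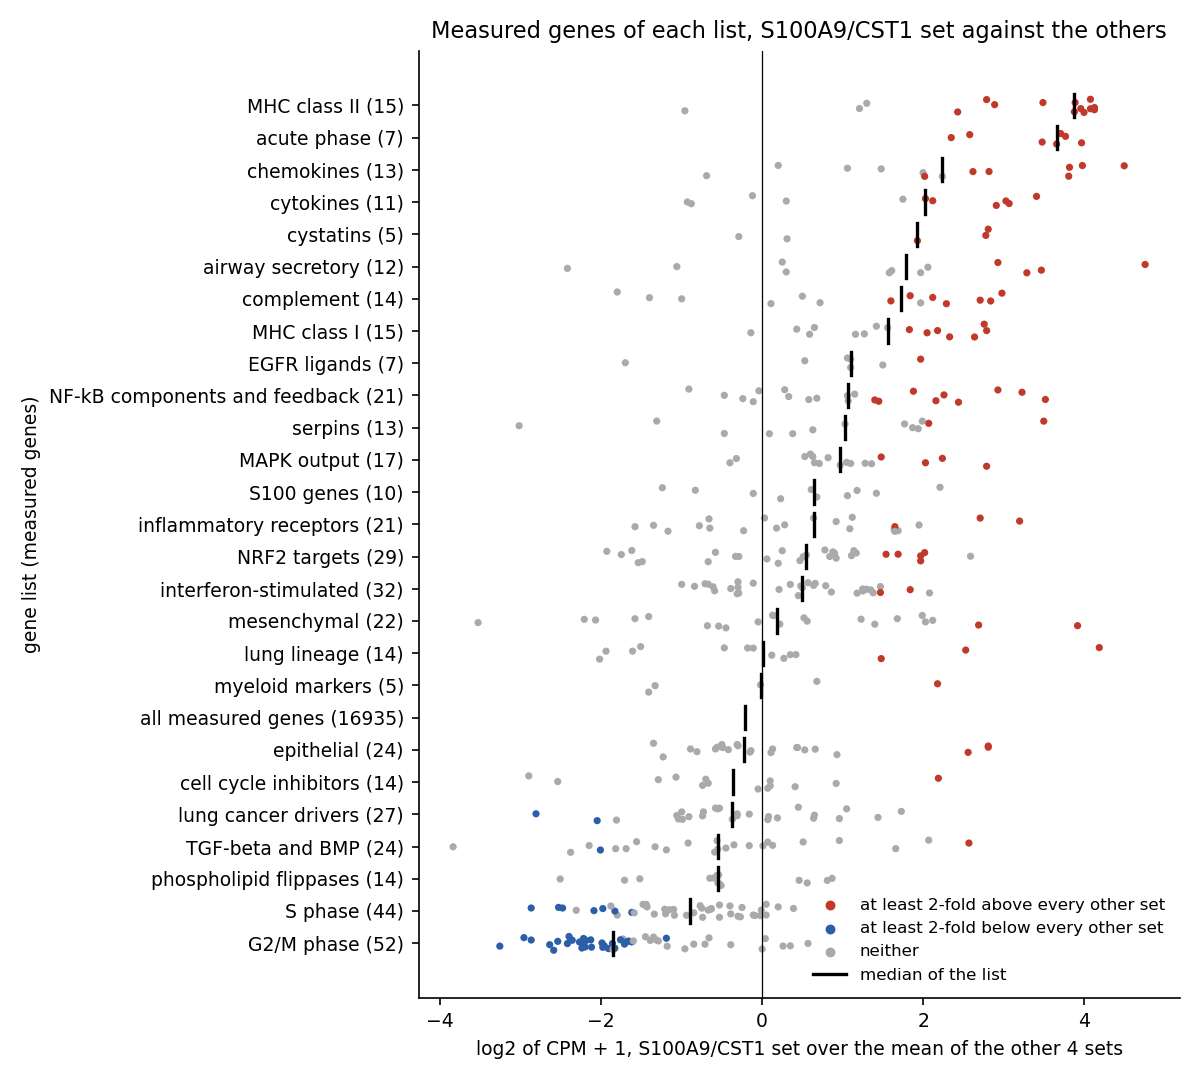
Each point is a measured gene of a list, placed by the log2 ratio of CPM + 1 in the S100A9/CST1 set to the mean of the other 4 sets. Black bars are list medians, which run from -1.85 for G2/M phase to 3.88 for MHC class II, with all genes at -0.21.

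Cell division genes were lower. Of 52 G2/M genes 31 were lower and none higher, with a median of -1.85, and members had the lowest of the 5 levels for 46. AURKB, a kinase of chromosome segregation, was at 4.58 CPM (3.25 to 6.26) in the S100A9/CST1 set, against 48.1, 69.2, 35.2 and 57.6 CPM in RBFOX3/AKR1B10, SLC30A8/MAGEA10, GRIA4/LINC01980 and DHRS2/ZNF676. GTSE1, which acts in G2, was at 3.17 CPM against 12.3 to 53.7, and KIF23, a cytokinesis motor, at 6.34 CPM against 25.6 to 75.6. The proliferation marker MKI67, named after its values were seen, was at 18.0 CPM against 43.2 to 92.3. The mitotic motors KIF18B, KIF4A and KIF18A and the centromere protein CENPI were among the 12 largest ratios downward, at 5.04 to 6.06 times under the lowest other set. Of 44 S phase genes 7 were lower, among them EXO1, a nuclease, at 5.05 CPM against 11.7 to 95.9, RRM2, which makes deoxynucleotides, at 11.4 CPM against 29.2 to 101, and the helicase BLM at 6.34 CPM against 16.7 to 61.4. The lower share among all measured genes was 2.27%. In the other direction CBX5, TUBB4B, ANP32E and LBR, also listed for G2/M, were at 113, 73.6, 56.1 and 95.5 CPM, each above the lowest other set.

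In thinned barcodes G2/M genes had at least 10 UMIs in 8.61% of members (6.03 to 11.8), against 47.8% in RBFOX3/AKR1B10, 54.1% in SLC30A8/MAGEA10, 25.9% in GRIA4/LINC01980 and 37.9% in DHRS2/ZNF676. S phase genes did so in 5.06%, against 33.5%, 37.1%, 11.2% and 26.2%. Members thus had the smallest share with many transcripts of either list. Of 14 cell cycle inhibitors CDKN1C alone was higher, at 44.1 CPM against 3.85 to 13.6, where 3.89% of all measured genes were higher. CDKN1A was at 3.76 CPM against 0.636 to 5.42. CDKN2A, the p16 gene, was at 14.1 CPM against 10.9 to 314. CDK6, a kinase of the G1 to S transition, was lower at 34.3 CPM against 149 to 298, and TERT, the telomerase enzyme, at 0.235 CPM against 2.75 to 6.65. The G2/M count was 24 with at least 5% mitochondrial UMIs and 21 with at most 10%. The S phase count was 6 and 3 under these limits, and 11 in thinned barcodes.

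**Figure D3:**
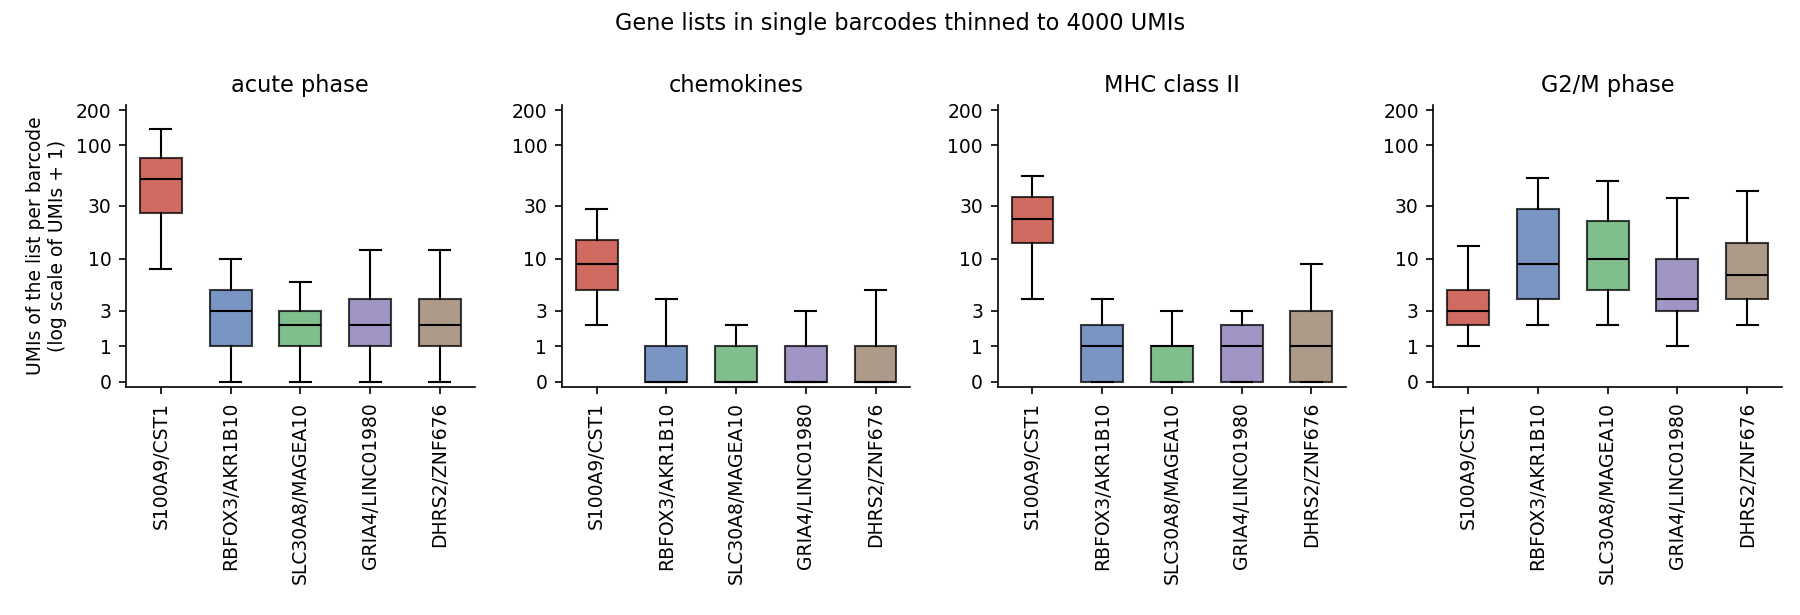
UMIs per barcode of 4 gene lists after thinning to 4000 UMIs, with barcodes of fewer UMIs left out, on a log scale of UMIs + 1. Boxes show quartiles with the median as a line and whiskers the 5th to 95th percentile, over 395 members and 477, 477, 286 and 240 barcodes of the other sets, left to right. Members have medians of 51.0 acute phase, 9 chemokine, 23 MHC class II and 3 G2/M UMIs.

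Other genes far down were of varied kinds. SLC25A35, a mitochondrial carrier, had no UMI among 8520247 in the S100A9/CST1 set. A count of 0 allows up to 0.352 CPM (3 counts over the set), against 6.89 CPM in DHRS2/ZNF676, the lowest other set (5.02 to 9.22). The phosphatase PTP4A1 was at 1.76 CPM against 16.5 to 81.2, INPP4B, a lipid phosphatase, at 42.1 CPM against 224 to 794, and MYLK, the myosin light chain kinase, at 17.6 CPM against 90.7 to 162. GEN1, which cuts DNA junctions, was at 11.6 CPM against 59.3 to 192. The noncoding A1BG-AS1 was at 1.53 CPM against 11.2 to 39.7, and AP000829.1 at 3.87 CPM against 21.9 to 119. The sources used here do not give the use of strand, so how reads of A1BG-AS1 and of its sense partner were split is uncertain.

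The ATAC library, which the rule used only for a depth minimum, counts transposase cuts in open chromatin. It gave 107414 peaks with at least 100 counts over the 5 sets. Of these 4929 (4.59%) were at least 2-fold higher in the S100A9/CST1 set than in any other and 626 (0.583%) at least 2-fold under the lowest. A peak could reach the minimum of 100 counts through members alone, so the 2 numbers are not like for like. Members gave 20961845 peak counts, against 5627110 to 24259787 in the other sets. With each barcode counted once per peak the numbers were 1867 and 365. Higher peaks lay away from gene starts more often than all: 84.5% were more than 2000 bases from any start, against 75.5% of measured peaks and 68.7% of lower peaks.

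The 8 leading peaks were all distal. Each passed the minimum of counts over the sets only through members, which makes a higher call likely. The first, chr4:125985650-125986563, was at 21.2 peak CPM (18.5 to 24.2) in members, against 1.36 in RBFOX3/AKR1B10, 0.959 in SLC30A8/MAGEA10, 1.78 in GRIA4/LINC01980 and 2.02 in DHRS2/ZNF676. It was open in 31.8% of members and lay 77590 bases from the nearest start, that of LINC02379, which had no UMI in any set. The next, chr5:102671118-102671953, was at 17 peak CPM against 0.349 to 1.55 and lay 6508 bases from AC099487.2, at 3.87 RNA CPM in members and up to 0.525 elsewhere. The third, chr14:103602861-103603781, was at 18.8 peak CPM against 0.355 to 1.86 and lay 25396 bases from KLC1. The other 5 lay on chromosomes 16, 3, 21, 11 and 2, 17232 to 71788 bases from a start, at 12.9 to 18.4 peak CPM. Of the nearest genes AC099487.2 and KLC1 alone had more RNA in members than in every other set. The lowest ratio was at the start of UBE2C, a ubiquitin enzyme of mitosis: chr20:45812039-45812936 was at 4.01 peak CPM (2.89 to 5.42) against 53.2, 90.4, 52.4 and 44.6. UBE2C RNA was also lower, at 5.99 CPM against 16.4 to 51.9.

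Accessibility at gene starts followed RNA in part. Peaks within 2000 bases of a start were summed for 15171 genes, of which 205 (1.35%) were higher and 107 (0.705%) lower. Of the 577 genes with higher RNA and a measured start, 116 (20.1%) were also higher there, and 57.2% had the highest accessibility of the 5 sets, against 16.1% of all genes. Of the 360 genes with lower RNA, 31 (8.61%) were lower at the start, and 57.5% had the lowest of the 5, against 18.7% of all. The log2 ratios over the mean of the other sets had r = 0.52 and rho = 0.46 over these genes, which share their libraries. Within 100000 bases 69.9% of genes with higher RNA had a higher peak, against 36.1% of all measured genes. So most genes high in RNA were not called at their own start.

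**Figure D4:**
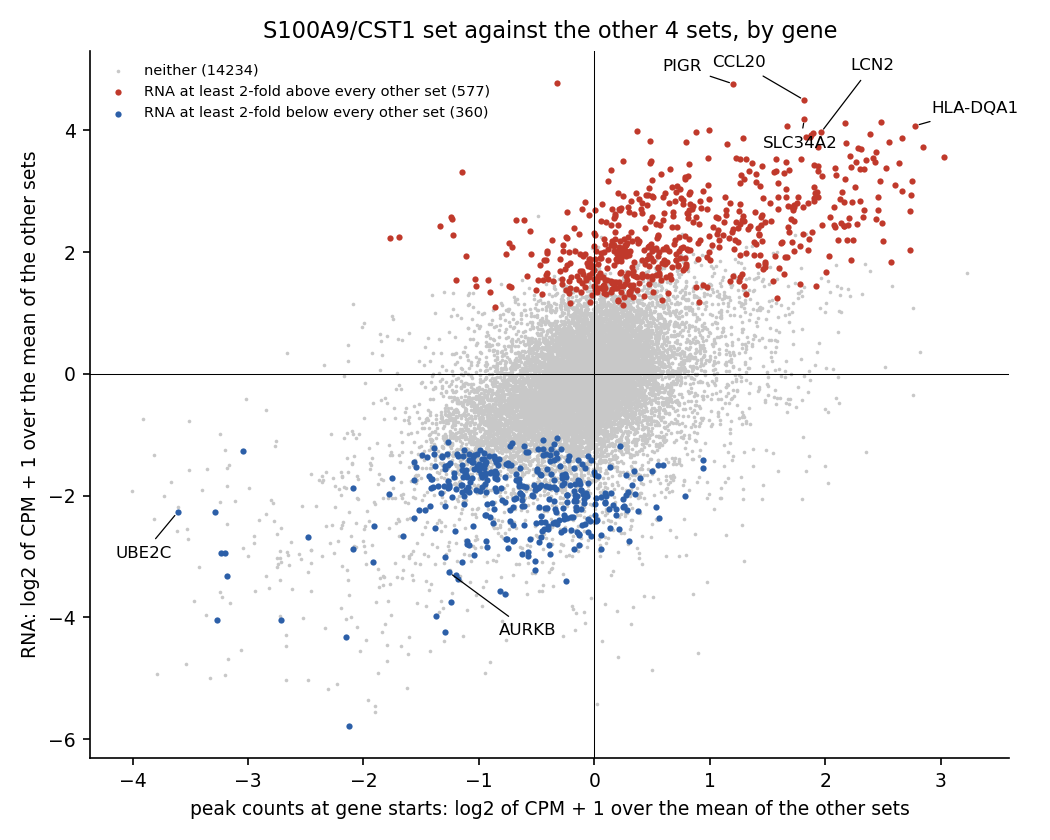
Each point is 1 of 15171 genes: the x axis is the log2 ratio of peak counts at its start and the y axis that of its RNA, S100A9/CST1 set over the mean of the other 4 sets. Genes with higher RNA lie mostly to the right of 0 and those with lower RNA to the left, and PIGR stands near the top.

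MHC class II starts were the clearest case. Of 15, 7 were higher and 14 had the highest accessibility of the 5 sets. The HLA-DQA1 peak, chr6:32636685-32637549, which covers the promoter printed above, was at 14.6 peak CPM (12.4 to 17.2) against 0.907, 1.05, 1.07 and 2.10. The CD74 peak at chr5:150412412-150413322 was at 45.8 peak CPM (41.8 to 50.1), against 3.87, 4.97, 3.55 and 19.9, with DHRS2/ZNF676 the nearest. The 2 peaks around the CIITA starts summed to 46.5 peak CPM, against 25.4 in DHRS2/ZNF676 and 3.50 to 5.69 elsewhere, and missed the threshold. Of 6 acute phase starts 3 were higher. The LCN2 peak, chr9:128148769-128149697, was at 69.7 peak CPM (64.8 to 75) against 20.0, 5.84, 26.8 and 15.9, a 2.54-fold difference where RNA differed 12.2-fold. SAA1 was at 17.5 and SAA2 at 20.9 peak CPM at their starts, against 1.48 to 4.58 and 2.02 to 6.05.

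Chemokine starts differed less than chemokine RNA. Of 12, only CCL20 was higher, at 6.06 peak CPM against 1.65, 0.523, 0.355 and 1.47. CXCL8 was at 10.4 peak CPM against 2.79 to 9.15, CXCL1 at 20.1 against 9.77 to 13.7 and CXCL6 at 4.34 against 0 to 3.65. S100A9 itself was at 19.3 peak CPM, summed over 2 peaks at its start, against 4.20, 18.0, 5.86 and 18.2. This sum was thus about as high in SLC30A8/MAGEA10 and DHRS2/ZNF676, where RNA was 35.8 and 33.4 CPM. The 1 peak over the S100A9 promoter printed above was at 15.5 peak CPM in members and at most 10.5 in the other sets. CST1 was at 2.53 peak CPM against 0.178 to 1.11, and PIGR at 3.29 against 0.543 to 1.42. NFKBIA was at 63.2 against 58.0 to 91.4, and SOD2 at 38.7 against 29.0 to 46.9, while TNIP3 at 9.21 against 0.355 to 2.56 and TNIP1 at 53.0 against 8.82 to 22.2 were higher. IL32 was at 19.2 against 3.20 to 5.58. At 2 starts accessibility was higher with almost no RNA: CXCL14 at 17.3 peak CPM against 2.18 to 6.80, with 2 UMIs in members, and KDR at 8.35 against 0.698 to 3.49, with none. Among G2/M starts 2 of 52 were lower, those of UBE2C and CENPA, although 31 of their RNAs were.

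Motifs were counted in the 250 bases before the starts, with RefSeq windows for 11519 of the measured genes. The kappa-B motif was in 18.6% of 431 genes with higher RNA and in 31.6% of the 76 also higher at their starts, against 15.4% of all and 15.2% of those with lower RNA. Letters searched on both strands were, besides kappa-B, CCAAT and the TEAD and STAT letters given above, TGANTCA for AP-1, TTGCNNAA for C/EBP, TGTTTAC for forkhead factors, CAAGTG for NKX2 factors, AACCNGTT for GRHL, an interferon regulatory factor (IRF) motif, TGANNNNGC for the antioxidant response element and TGTGGT for RUNX. In the same 76 genes CAAGTG was in 25% and TGTTTAC in 9.21%, against 10.4% and 3.20% of all. TGANTCA was in 6.58%, against 6.55%, and CCAAT in 47.4%, against 41.3%. The shares are descriptions, and a match is not a bound site.

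Whole regions differed in both libraries. In 286 bins of 10 Mb the ratio of peak counts to the mean of the other sets ran from 0.436 to 1.75, with a median of 1.03. The lowest was chromosome 17 from 10 to 20 Mb, at 2653 peak CPM in the S100A9/CST1 set against 6535, 6167, 5865 and 5781, and its RNA ratio was 0.530. The neighbouring first 10 Mb had a ratio of 0.469 in peaks and 0.523 in RNA. Both bins were lower than in every other set. Of 267 genes measured in the first 20 Mb of this chromosome 49 (18.4%) were lower, with a median of -1.04, and AURKB and SLC25A35 lie there. Without chromosome 17, 29 of 49 G2/M genes were lower. The highest ratios were 1.75 on chromosome 6 from 160 Mb, 1.68 on chromosome 1 from 190 Mb, and 1.67 and 1.66 on chromosome 3 from 180 and 190 Mb. The first of these had an RNA ratio of 0.828, so RNA did not follow there, while those on chromosome 3 had 1.35 and 1.47. LAMP3, ETV5, CLDN1 and MUC4, each with higher RNA, lie in these bins of chromosome 3. Bins on chromosome 5 from 100 and 120 Mb had ratios of 1.56 and 1.63. Low ratios on chromosome 7 from 50 Mb, at 0.464, came with 14857 peak CPM in GRIA4/LINC01980, where EGFR lies and was at 7560 RNA CPM. The last 3 low bins were chromosome 3 from 80 Mb, chromosome 9 from 20 Mb, where CDKN2A lies, and chromosome 7 from 80 Mb, at 0.476 to 0.523. Over the bins peak and RNA log2 ratios had r = 0.62 and rho = 0.70. DNA copy number and accessibility cannot be told apart from these counts. With each peak divided by the ratio of its bin, peaks above every other set numbered 4180 and peaks below every other set 472.

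**Figure D5:**
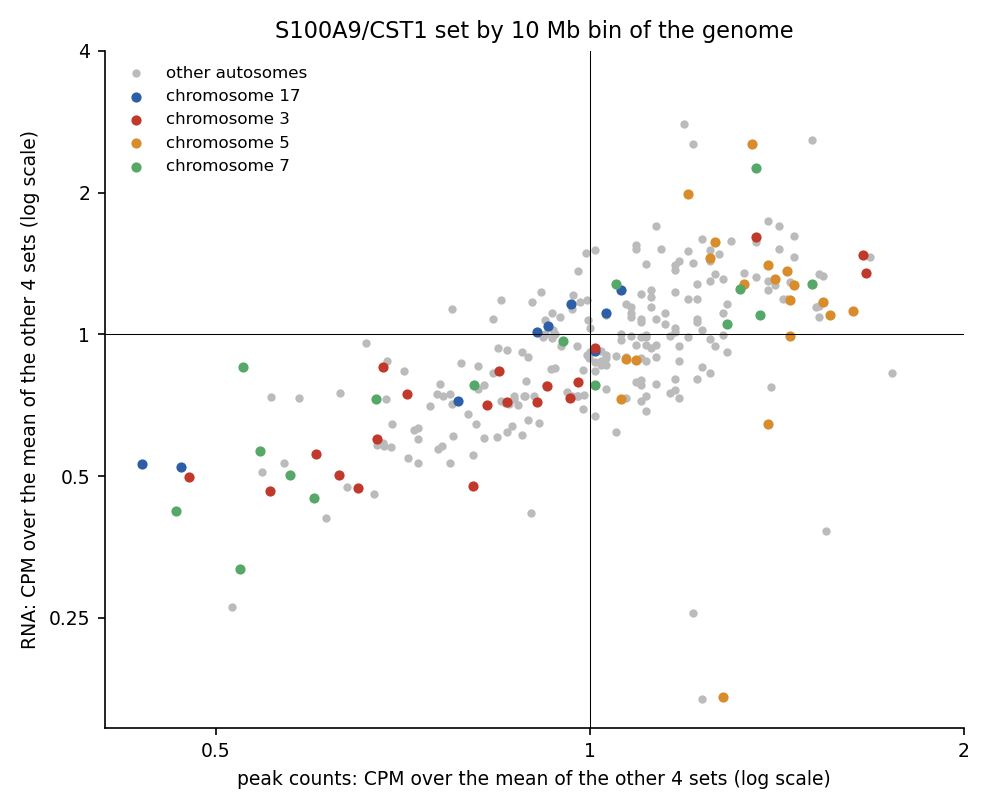
Each point is a 10 Mb bin of an autosome: x is the ratio of peak CPM and y that of RNA CPM, S100A9/CST1 set over the mean of the other 4 sets, both on log scales. The 2 leftmost chromosome 17 bins stand at 0.436 and 0.469 in peaks and near 0.53 in RNA, and chromosome 5 bins mostly lie right of 1.

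Members varied most in a few genes. Over 395 members thinned to 4000 UMIs, 4129 genes had a mean of at least 0.2 UMIs, with a median variance-to-mean ratio of 1.12. LCN2 had a ratio of 27.3, with 0 UMIs in the lowest member, 19.0 at the first quartile, 40.0 at the median, 64.5 at the third and 184 in the highest. MALAT1 and NEAT1, nuclear noncoding RNAs, had 27.8 and 11.2. In the other sets the ratio of MALAT1 was larger, at 37.6 to 73.4, and that of NEAT1 smaller, at 4.69 to 9.50. MIR205HG, host of a microRNA of basal epithelium, had 11.9, with a UMI in 24.6% of members and up to 31 in 1. The secretory gene AGR2 had 11.4, FCGBP 9.54 and CCL20 9.44, with 0 UMIs at the median of both FCGBP and CCL20 and 33 and 37 in the highest member. FN1, fibronectin, had 9.34, and IGFBP3, which binds insulin-like growth factors, 9.29. FCGBP and CCL20 were thus seen in 38.2% and 43.3% of members, whereas CXCL8 and CXCL1 were seen in 86.6% and 84.8%, and 9 of the 395 held no UMI of any listed chemokine.

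EGFR had the largest ratio, 34.3, and 2 members set it. They gave 603 of 14668 UMIs (4.11%) and 141 of 11154 UMIs (1.26%) to EGFR, against a median of 0.0407% over members and 0.648% in GRIA4/LINC01980. They had 6 and 4 LCN2 UMIs and 4 marker UMIs each, and 2.40% and 1.20% of their peak counts lay on chromosome 7 from 50 to 60 Mb, against a median of 0.224% over members and 1.48% in GRIA4/LINC01980. They thus met the rule while differing from the other members in EGFR, LCN2 and this region. Without them EGFR was at 600 CPM and LCN2 at 11350 CPM, against 685 and 11317 CPM with them.

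Programmes varied together only in part. Over the 395 thinned members, UMIs of MHC class II and class I genes had rho = 0.67, acute phase and MHC class II rho = 0.56, acute phase and secretory genes rho = 0.52, and acute phase and complement rho = 0.42. Chemokines were nearly unrelated to acute phase genes at rho = 0.16 and to MHC class II at 0.08. Epithelial and mesenchymal genes had rho = -0.34. Mitochondrial UMIs had rho = 0.35 with acute phase and 0.31 with MHC class II genes, and 0.07 with chemokines. LCN2 gave most of the acute phase UMIs, so the acute phase values mostly follow that gene. All these values are descriptions over barcodes of 1 library, in which all lists share 1 fixed total.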

How the data were processed

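Gene UMI counts and peak counts per barcode were used as the authors deposited them in 1 matrix. The submitters' processing notes name Cell Ranger ARC 2.0.0 and GRCh38. How cells and peaks were called, the annotation and the use of strand: not given in the sources used here. Gene and peak positions are those deposited by the authors. Members and gene lists were chosen with earlier results of these data known. UMI and peak counts were summed per set and divided by the set's total (8520247 UMIs and 20961845 peak counts for S100A9/CST1). Named were the rule genes, the 15 largest and 12 smallest ratios, list members (of lists over 22 genes the 4 largest and 4 smallest ratios), 8 peaks, the 10 most variable genes and the extreme bins. Of non-zero peak entries 83.3% were even, since a fragment mostly adds 2, so peak intervals were computed on halved counts. No doublet caller was run: mixed droplets were removed only by the 70% rule. Gene starts are the deposited spans. Calls and thinning were checked on simulated counts. Python 3.11.15, scipy 1.17.1 and edgeR 4.0.16 (for TMM factors only) were used. Alternatives covered scaling, minimum counts, pseudocount, rule limits, depth and mitochondrial limits. A few genes that the naming rule takes are not reported here, but they count in their lists.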

Additional observations from a re-analysis of the deposited data

How the results depend on the processing

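Of 77 recomputed counts 64 stayed within 1.5 times of the reported one. With a pseudocount of 0.1 CPM 604 genes and 2966 peaks were lower. Against the mean of the other sets, 1561 genes were higher and 3129 lower, 11 chemokines were higher, and the peaks above every other set became 13632 and the peaks below every other set 13876. At 4-fold 343 peaks were higher and 45 lower, and with binarised counts 1867 and 365. Against GRIA4/LINC01980 and DHRS2/ZNF676 alone, a comparison chosen after seeing the data, 1082 genes were higher and 843 lower. The cause of these moves was not tested. The limit of 5% mitochondrial UMIs and the count without chromosome 17 were also chosen after seeing the data. TMM factors gave 781 higher and 293 lower genes and moved the median of all genes to -0.08. Thinned barcodes gave 496 higher and 552 lower genes. The MHC class II count was 11 to 12 under every alternative except the mean, with 14, the G2/M count 21 to 42 and the S phase count 3 to 21. Of 1595 values of the 145 called genes of the naming rule that are reported here, 682 moved by more than their counting interval. The set had 307 members with at least 5 marker UMIs, 323 with at least 90% of marker UMIs and 404 with no mitochondrial limit. No paired analysis was possible because there is 1 library of each kind. Genes with few UMIs, such as KRT6A and CST4, are limited by depth.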

Other observations

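Growth factor and feedback genes of the MAPK pathway were in part higher in the S100A9/CST1 set. Of 17 genes of MAPK output 4 were higher: the phosphatase DUSP6 at 117 CPM against 4.06 to 25.9, IER3 at 414 CPM against 42.7 to 146, PHLDA1 at 222 CPM against 14.7 to 77.3 and the ETS factor ETV5 at 105 CPM against 23.5 to 44.7. Of 7 EGFR ligands EGF was higher, at 37.0 CPM against 5.30 to 11.6, while AREG was at 283 CPM against 312 in GRIA4/LINC01980. Of 24 TGF-beta and BMP genes GDF15, a stress-induced ligand, was higher at 346 CPM against 16.2 to 85.5, and ID2, a BMP target, was lower at 11.1 CPM against 23.4 to 65.4. Over all measured genes 3.89% were higher and 2.27% lower, so 1 call in lists of this size says little. The lower count of the TGF-beta and BMP list was 0 with TMM factors, at least 5 marker UMIs or at least 5% mitochondrial UMIs.

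Of 29 NRF2 targets 5 were higher, with a median of 0.55. The ferritin chain FTH1 was at 1818 CPM against 301 to 699 and the detoxifying enzyme EPHX1 at 381 CPM against 48.5 to 173. ALDH3A1 was at 256 CPM against 144 in RBFOX3/AKR1B10, and ABCC2, an export pump, at 81.8 CPM against 749 there. ROS1, a receptor kinase, was at 48.1 CPM against 3.18 to 27.7 and STK11, a tumour suppressor kinase, at 49.5 CPM against 10.8 to 24.5, both short of the threshold. None of the 27 measured lung cancer drivers was higher and 2 were lower, against 3.89% and 2.27% of all measured genes. A count of 0 in a list of this size says little.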
